A study of Arabidopsis thaliana with 6 samples.

Results

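Annotated intron retention bins are stretches of a gene that one annotated transcript keeps as exon and another removes as an intron. They were taken as every bin that the authors' table of alternatively spliced bins marks with the event IR, which gave 2230 of its 7973 bins, in 2020 loci. Of these loci, 1838 held 1 such bin and 182 held several, with at most 4. The seedlings were Arabidopsis thaliana of the Columbia ecotype (Col), with no mutation or transgene named in the labels, grown at 22 °C for 9 days in cycles of 12 h of light and 12 h of darkness. The dark control group stayed in darkness through the following night, and the light pulse group received 2 h of white light (50 µmol m-2 s-1) from ZT18, where ZT is the time in hours since lights-on. Both groups were harvested at ZT20, with 3 RNA-seq libraries each, named here by the letters A to C of their columns. The labels do not state whether the 3 libraries were grown as independent cultures. The spread behind each p-value is therefore the one seen among these samples and may be technical. Seedlings hold many cell types, and fewer cells of a type and less RNA per cell cannot be told apart in them.

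In intron retention, an intron stays in the mature transcript. It is the most common form of alternative splicing in plants, and light and darkness are known to change the splicing of many plant transcripts. A retained intron can bring a stop codon that exposes the transcript to nonsense-mediated decay, it can hold the transcript in the nucleus, or it can add residues to the protein. A related form is the exitron, a stretch inside a coding exon that can be removed like an intron, and a stretch whose length is a multiple of 3 can be removed or kept without a shift of the reading frame.

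The 6 libraries held 8695843 to 12689543 counts in genes. Pearson's r of log gene levels was 0.992 to 0.993 within groups and 0.931 to 0.944 across them. Dark library C and light library A were richest in ribosomal RNA, with 4.77% and 4.40% of their counts in its loci, and the remaining libraries had 0.799% to 1.75%. The labelled tissue was checked against leaf and root markers. The summed level of 4 leaf genes (CAB1, RBCS1A, RCA and PSBO1) was 27730 to 29718 CPM (counts scaled to one library size) in the dark and 30938 to 31335 CPM after light. RCA alone rose among these (1.11 ± 0.05 on the log2 scale, adjusted p = 1.52e-10). CAB1 fell by 0.19 (0.00706), and RBCS1A and PSBO1 changed by 0.08 and -0.01 (0.199 and 0.876). These log2 changes are normalized between libraries (TMM) and the CPM values are not, so the 2 are not on one scale. Without that normalization the median change of all genes was -0.15. In CPM, PSBO1 was 2591 to 2777 in the dark and 2396 to 2447 after light. The summed level of 4 root genes (COBL9, EXPA7, SCR and PHO1) was 199.7 to 216 CPM in the dark and 161 to 176 CPM after light. Most of that sum is PHO1, which fell by 0.41 (adjusted p = 6.79e-05), while COBL9, EXPA7 and SCR rose by 0.92, 0.74 and 0.37 (0.00565, 0.0241 and 9.53e-05), so the marker sums do not show a uniform shift of either list. None of the 8 was at 0. The part of these shifts in the results was not tested.

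Usage of a bin is its count as a percentage of the count of its gene in the same library. Of the 2230 bins, 213 had no count in any library and 2022 lay in genes with at least 10 counts in every library. The test needed enough reads in the bin itself, and 852 bins in 822 loci met this, while 1378 did not. A bin could pass on 1 group of 3 libraries alone. Of the tested bins, 600 met the count floor (10 counts in a library of median size) in all 6 libraries, and of the others 158 had the higher level in the dark and 94 after light. In all, 155 tested bins lay in a locus that overlaps another. Whether reads were counted by strand is not given in the sources used here, so their reads may belong in part to the other gene.

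Read density differed widely between the tested bins. For each bin the counts per base were set against the counts per base of its gene, here called density and averaged over both groups. Density could exceed 100%, also in long bins, such as the 567-base bin of HOG1 (163%). How reads that touch several bins were counted is not given in the sources used here. Density exceeded 60% in 673 of the 852 bins (median 182%), lay between 20% and 60% in 109, between 5% and 20% in 54, and under 5% in 16. Splicing of the bin itself leaves reads that join its outer borders, here called spanning reads. No library held a spanning read for 403 bins (47.3%), 325 bins (38.1%) had fewer spanning reads than bin reads, and 124 (14.6%) had at least as many.

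The bins of highest usage had few or no spanning reads. AT3G07215, a non-coding RNA gene, had 57.8 ± 2.10% of its counts in a 902-base bin in the dark and 59.9 ± 3.52% after light (mean ± SD, n = 3), with 0 to 3 spanning reads per library. AT5G56710 had 56.5 ± 2.05% and 55.7 ± 2.02% in a 102-base bin, and AT4G21620 had 51.0 ± 1.64% and 49.0 ± 3.45% in a 99-base bin. AT1G12080 had 45.6 ± 1.89% and 46.4 ± 0.379%, also in 102 bases. None of these last 3 had a spanning read, and in all 4 the groups overlapped. The fifth by usage was AT3G06125, another non-coding RNA gene, whose 104-base bin took 44.4 ± 2.70% in the dark and 51.4 ± 1.11% after light, with 22 to 36 spanning reads per library. Light libraries were all higher there, and the change of 0.22 ± 0.09 did not pass the test against the gene count (adjusted p = 0.400). Against its spanning reads the bin rose by 0.98 (adjusted p = 0.00870).

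Bins that were spliced out in most reads lay at the other end. In PSBS, the photosystem II protein that dissipates excess light as heat, the 466-base bin took 0.375 ± 0.0909% of gene counts in the dark and 0.586 ± 0.0544% after light. The spanning junction of PSBS had 882 to 1143 reads in the dark and 2686 to 3552 after light. In LHCA1, a light-harvesting protein of photosystem I, the 91-base bin took 0.109 ± 0.0646% and 0.237 ± 0.0619%. In LHCB4.2, a minor antenna protein of photosystem II, an 85-base bin in an overlapping locus took 0.160 ± 0.0614% and 0.303 ± 0.0643%. In PMDH2, a peroxisomal malate dehydrogenase, a 73-base bin took 0.344 ± 0.0794% and 0.555 ± 0.101%. Light libraries were above dark libraries in PSBS, PMDH2 and, narrowly, in LHCB4.2, but LHCA1 overlapped, and none of the 4 passed the test (adjusted p = 0.0737, 0.101, 0.168 and 0.140, edgeR's quasi-likelihood test with Benjamini-Hochberg adjustment). With no filter on low counts PSBS, PMDH2 and LHCA1 passed (0.0189, 0.0285 and 0.0289), and without dark library A PMDH2 and LHCB4.2 did (0.0200 and 0.0397). Introns with no alternative event rose too in LHCA1 and PMDH2. Summed per gene, they went from a mean of 0.180% to 0.411% of gene counts in LHCA1 and 0.232% to 0.562% in PMDH2. The groups did not overlap in these 2 genes. In PSBS the mean went from 0.158% to 0.405%, which rested on light library B, with 198 of these reads in 23280 gene counts. Light libraries A and C had 39 in 22213 and 34 in 17874, shares within the range of the dark libraries. Dark libraries A to C had 14 in 7005, 11 in 5993 and 7 in 7763. LHCB4.2 had no such value. Whether the bin changes are particular to the bins was not tested.

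Widths of the bins had a median of 96 bases, and 103 among the tested ones, against 99 for 120717 introns that the authors list with no alternative event. Multiples of 3 were 40.1% of all bins (894 of 2230) and 39.3% of the tested ones, against 33.0% of those introns. The share differed with density. It was 41.9% among the 673 bins above 60% density, 32.1% between 20% and 60%, 22.2% between 5% and 20% and 37.5% among the 16 below 5%. Among bins with no spanning read it was 43.7%, and it was 36.6% and 32.3% in the 2 groups with fewer and with at least as many spanning as bin reads. Among bins above 60% density, 136 of 284 bins of up to 90 bases (47.9%) were multiples of 3, and 50 of 139 bins over 150 bases (36.0%) were. These shares describe the annotation and were not tested.

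**Figure D1:**
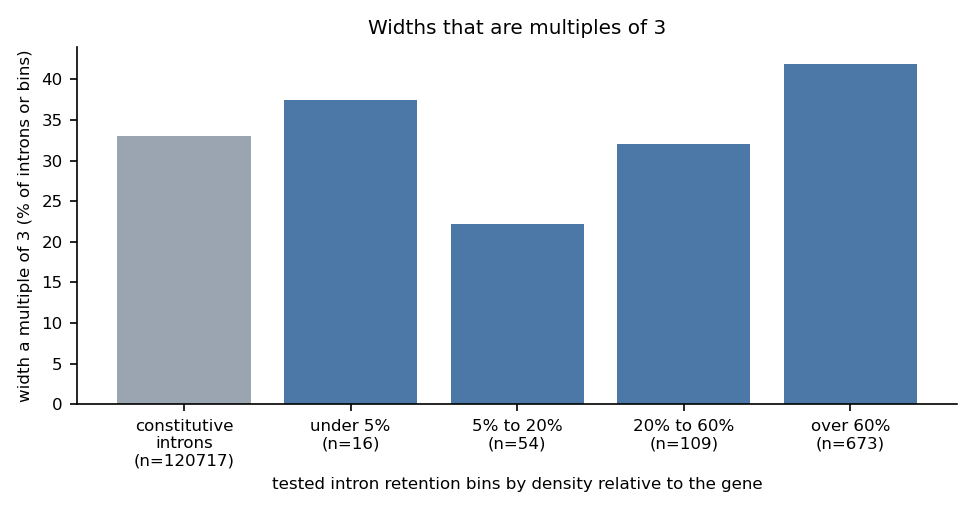
Percentage of widths that are a multiple of 3 (vertical axis) among constitutive introns and among the tested intron retention bins, grouped by the density of bin reads relative to the gene (mean of both groups). The 673 bins above 60% density stand at 41.9% and the 120717 introns at 33.0%; the group under 5% holds only 16 bins.

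The light pulse changed the usage of few intron retention bins. At an adjusted p under 0.05, 9 of 852 bins passed (1.06%), 6 higher and 3 lower after light, where the background over all 3345 alternatively spliced bins tested was 1.20%, 0.538% higher and 0.658% lower. At an unadjusted p under 0.05, 97 bins passed (11.4%) against 9.06% over all bins. The groups of libraries did not overlap in 151 bins (17.7%) against 14.7% over all bins. Of these, 86 were higher after light (10.1%, background 6.94%) and 65 lower (7.63%, background 7.77%). The median change was 0.01 on the log2 scale, with the middle 50% of bins between -0.14 and 0.20. Alternative 3' sites passed in 8 of 1132 bins, alternative 5' sites in 5 of 482, skipped exons in 2 of 326 and bins of mixed event in 16 of 553.

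Constitutive introns that could be tested passed the same model more often. Only 3296 of 120717 had enough reads, against 852 of 2230 intron retention bins, so the tested introns are a more selected set. Of 3296 such introns tested, 135 rose and 74 fell relative to their gene, where the intron background was 6.34%, 4.10% higher and 2.25% lower. Their median change was 0.05 on the log2 scale, with the middle 50% between -0.25 and 0.35. The difference between the 2 shares was not tested.

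Summaries over bins moved little and not all in 1 direction. Bin counts were summed over all 2230 bins, tested or not, and gene counts over their loci. The bin sum was 7.53%, 7.45% and 7.69% of the gene sum in dark libraries A to C. It was 7.85%, 7.96% and 7.73% in light libraries A to C. All light libraries lay above all dark ones (7.56 ± 0.118% against 7.85 ± 0.115%; exact two-sided permutation test, p = 0.1, the smallest that 3 against 3 libraries allow). Without the 10 bins of highest count the order turned, to 5.78 ± 0.0512% in the dark and 5.54 ± 0.126% after light (exact permutation p = 0.1), a comparison chosen after these values were seen. The median usage over the tested bins was 8.20 ± 0.0587% in the dark and 8.09 ± 0.192% after light, with overlapping groups (exact permutation p = 0.4). Centred per bin, with 1 count added, the median was 0.03 higher on the log2 scale in light than in dark libraries, without overlap (exact permutation p = 0.1).

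Those 10 bins belong to strongly expressed genes. The bin of HOG1, which encodes S-adenosylhomocysteine hydrolase, took 44.7% of gene counts in the dark and 46.2% after light, the mean of 3 libraries each. The bin of the chaperone gene HSP70-1 took 27.2% and 27.9%, and its counts were 6382 to 8093 in the dark and 8336 to 11444 after light. In FBA1, a chloroplast fructose-bisphosphate aldolase, counts in a 30-base bin were 1127 to 1242 in the dark and 3053 to 4021 after light, at a usage of 12.7% and 13.4%. None of these 10 bins was called.

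Of the 3 bins that fell, PSAP (also CURT1B) had the most counts. This gene encodes a thylakoid membrane protein that curves the margins of the grana. Its 110-base bin (chromosome 2, 19243590 to 19243699, TAIR10) had 427, 421 and 463 counts in dark libraries A to C and 364, 387 and 271 in light libraries A to C. As a share of the gene this was 6.40%, 7.24% and 6.84% in the dark and 4.13%, 4.24% and 4.18% after light. Every light library lay below every dark one, and the change was -0.70 ± 0.06 on the log2 scale (SE; adjusted p = 3.68e-07, edgeR's quasi-likelihood test). The gene itself rose by 0.63 ± 0.06. Spanning reads were few, 14, 12 and 12 in the dark and 3, 15 and 3 after light, so the loss of bin reads had no matching gain of spliced reads. The junction's own change was -1.18 ± 0.43 (adjusted p = 0.711). The 1-base bin on the outer side had 14, 12 and 13 counts in the dark and 4, 15 and 3 after light. These are close to the spanning reads and far below the bin counts, so retention between 2 used exons is not shown here. The call held in each of 14 alternative settings, with adjusted p of at most 1.20e-04.

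AT3G15010 had the most used of the called bins. Its 543-base bin (chromosome 3, 5054063 to 5054605) took 23.1%, 25.4% and 23.8% of gene counts in the dark and 15.6%, 15.9% and 16.6% after light, a change of -0.58 ± 0.11 (adjusted p = 0.00508). The groups were well apart. Spanning reads were 14, 17 and 21 in the dark and 25, 30 and 22 after light, so each light library was above each dark one. The junction's change relative to the gene was 0.55 ± 0.24 (adjusted p = 0.900), and the gene rose by 0.29 ± 0.07. Set against the spanning reads in place of the gene, the bin fell by 1.16 (adjusted p = 0.00870). The call against the gene count did not hold with DESeq2 (adjusted p = 0.0886), without dark library B (0.0551) or without the rRNA-rich pair (0.0858).

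AT3G29240 fell in a gene that itself fell by 1.09 ± 0.07 on the log2 scale. Its 128-base bin (chromosome 3, 11191604 to 11191731) had 149, 152 and 141 counts in the dark and 35, 39 and 27 after light. Usage was 4.14%, 4.10% and 4.01% in the dark and 2.32%, 2.40% and 2.51% after light (-0.77 ± 0.13, adjusted p = 0.00313). The groups were far apart relative to their spread. No read spanned the annotated intron in any library, and the 3-base bin on its outer side had 0 counts in all 6. DESeq2 gave an adjusted p of 0.0577, and leaving out the rRNA-rich pair of libraries gave 0.0705.

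Among the 6 bins that rose, AT1G25098 had the most reads. RefSeq lists it as a long non-coding RNA, and it overlaps the locus AT1G25097, so its counts are uncertain. Its 674-base bin (chromosome 1, 8813246 to 8813919) took 9.45%, 12.4% and 11.0% of gene counts in the dark and 19.1%, 26.2% and 16.4% after light (0.94 ± 0.11, adjusted p = 2.94e-05). Light libraries were all higher, with an SD of 5.05%. Spanning reads fell from 1454, 1225 and 1280 to 406, 487 and 411, and relative to the gene, which fell by 0.92 ± 0.07, they changed by -0.39 ± 0.06 (adjusted p = 1.07e-04). Bin counts themselves were 774, 885 and 754 in the dark and 596, 1007 and 439 after light, which overlap. The call held in each of 14 alternative settings.

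SC35 encodes a serine and arginine rich splicing factor, a protein that helps the spliceosome to recognise exons, and genes of this family are known for splicing changes in their own transcripts. Its 190-base bin (chromosome 5, 25681543 to 25681732) had 29, 20 and 20 counts in the dark and 53, 48 and 39 after light. Usage was 5.53%, 4.61% and 4.07% in the dark and 8.75%, 7.40% and 8.50% after light (0.78 ± 0.19, adjusted p = 0.0471). All light libraries were above all dark ones. Spanning reads were 8, 13 and 14 in the dark and 15, 15 and 9 after light, which overlap, and the gene rose by 0.52 ± 0.07. The locus overlaps another. The adjusted p lay close to the threshold, and the call was lost in 10 of 13 alternative settings, with DESeq2 giving the highest adjusted p (0.562).

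The other rises were in bins of low usage. In SYTA, a synaptotagmin that holds the endoplasmic reticulum to the plasma membrane, a 72-base bin (chromosome 2, 9017053 to 9017124) had 8, 3 and 3 counts in the dark and 13, 22 and 10 after light. Usage went from 0.165 ± 0.0982% to 0.564 ± 0.141% (1.77 ± 0.42, adjusted p = 0.0329), beside 147 to 174 spanning reads in the dark and 108 to 165 after light. Every light library was higher than every dark one in usage and in bin counts. The constitutive introns of SYTA together went from 0.247% to 0.565% of gene counts. Among the other bins that rose, the mean share of those introns was also higher in SC35 (0.348% to 0.537%) and AT1G25098 (0.469% to 0.772%). It was lower in NAP1;1 (0.621% to 0.358%) and AT2G25730 (2.35% to 1.87%), and AT2G10940 had no such value. SC35 had 0, 1 and 4 such reads in the dark and 3 in each light library. NAP1;1 had 12, 8 and 19 in the dark and 9, 6 and 3 after light. Shares overlapped between groups in SYTA, SC35, NAP1;1 and AT2G25730. These intron sums were not tested. The call was lost when dark library B, dark library C, light library A or light library B was left out, with adjusted p of 0.182, 0.248, 0.0521 and 0.327.

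In AT2G10940, a 354-base bin (chromosome 2, 4310783 to 4311136) had 23, 33 and 19 counts in the dark and 41, 62 and 33 after light. Usage went from 0.257 ± 0.0824% to 0.488 ± 0.107% (0.94 ± 0.22, adjusted p = 0.0329), beside 641 to 818 spanning reads. Light library C equalled dark library B in counts (33) but not in usage. The gene rose by 0.19 ± 0.06. The call was lost without dark library A (adjusted p = 0.0985), dark library C (0.253) or light library B (0.262) and with DESeq2 (0.210).

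In AT2G25730, an 84-base bin (chromosome 2, 10956621 to 10956704) took 1.29%, 2.01% and 1.69% of gene counts in the dark and 2.45%, 3.81% and 3.57% after light (0.97 ± 0.23, adjusted p = 0.0389). The groups did not overlap. Spanning reads were 18, 18 and 15 in the dark and 5, 7 and 3 after light, so bin and junction moved in opposite directions, while the gene changed by -0.31 ± 0.07. The junction's change of -1.15 ± 0.39 did not pass the test (adjusted p = 0.620). The bin's call was lost in 8 of 14 alternative settings, with DESeq2 again giving the highest adjusted p (0.323).

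NAP1;1 encodes a nucleosome assembly protein, a histone chaperone. Its 403-base bin (chromosome 4, 13235028 to 13235430) had 18, 9 and 15 counts in the dark and 24, 27 and 21 after light, and the gene did not pass the test (-0.05 ± 0.06, adjusted p = 0.495). All light counts were above all dark ones, and the change was 1.10 ± 0.26 (adjusted p = 0.0307). No read joined the exact borders of this bin. The call was lost in 7 of 13 alternative settings, 5 of them leaving out 1 library (dark B, dark C, light A, light B or light C), with adjusted p from 0.0619 to 0.161 in those 5.

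**Figure D2:**
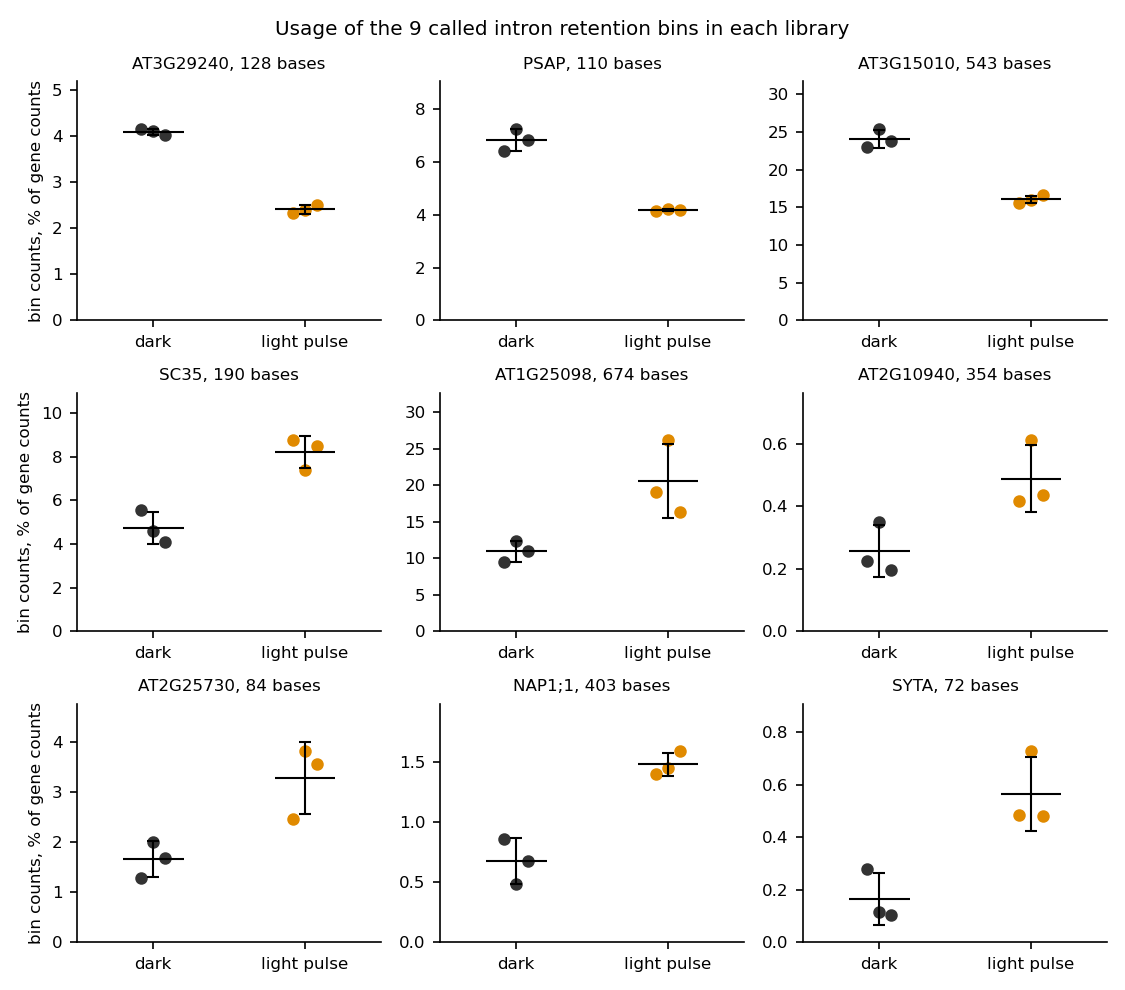
Usage (bin counts as a percentage of gene counts, vertical axis, each panel with its own scale from 0) of the 9 called intron retention bins in the 3 dark and the 3 light pulse libraries; points are libraries, horizontal lines are means and bars are SD. Light and dark libraries do not overlap in any panel; PSAP falls from 6.83% to 4.18% and SC35 rises from 4.74% to 8.21% (means).

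Tests of the spliced junction itself gave few calls. Of the tested bins, 185 had a spanning junction with enough reads, and 4 of these junctions passed (2.16%, 2 higher and 2 lower), where the background over all 65776 junctions of a single gene was 0.172%. Bin and junction had opposite signs in 114 of the 185 (61.6%), and in 5 of the 7 called bins among them, but both are relative to the same gene count and are not independent. The 4 junctions were those of AT1G25098, described above, and of EXP1, CA1 and UBA2A.

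EXP1 (also EXPA1) encodes an expansin, a protein that loosens cell walls. Its 90-base bin had 831, 830 and 1024 counts in the dark and 629, 716 and 459 after light, with 26, 34 and 48 spanning reads in the dark and 52, 61 and 27 after light. Light library C overlapped the dark libraries, yet relative to the gene count the junction rose by 0.87 ± 0.18 (adjusted p = 0.0281), while the bin changed by -0.07 (adjusted p = 0.813). CA1 encodes a chloroplast carbonic anhydrase. Its 287-base bin had 468, 371 and 425 spanning reads in the dark and 720, 748 and 561 after light, a rise of 0.33 ± 0.06 relative to the gene (adjusted p = 0.00350). All light libraries of CA1 were above all dark ones, and the bin changed by -0.10 (adjusted p = 0.594). In UBA2A, which encodes an RNA-binding protein, a 112-base bin had 31, 32 and 28 spanning reads in the dark and 9, 10 and 3 after light (-1.45 ± 0.30, adjusted p = 0.0212). All light libraries were lower there, and the bin changed by -0.30 (adjusted p = 0.788). A second bin of UBA2A, of 116 bases, went from 7.68 ± 1.34% to 5.34 ± 0.598% without overlap (-0.54 ± 0.15, adjusted p = 0.107). That bin passed with no filter on low counts (0.0214) and without dark library C (0.0312).

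Bin reads were also set against spanning reads directly, in the bins with at least 10 spanning reads in every library. This model takes the spanning reads as known and leaves out their counting noise. Of 134 intron retention bins, 15 passed (6 higher and 9 lower) where the background over 150 bins of all events was 12.7%, so intron retention bins make up most of that background. The bins that fell against their spliced form included CRR6, needed to assemble the chloroplast NDH complex, with 19, 14 and 16 counts in the dark and 4, 5 and 1 after light beside 45 to 86 spanning reads (-1.94 ± 0.40, adjusted p = 0.0213). With the gene count as reference CRR6 changed by -1.55 ± 0.43 and did not pass (adjusted p = 0.0984). AT5G06130 also fell, with 23, 12 and 21 counts in the dark and 9, 7 and 4 after light (-1.37 ± 0.32, adjusted p = 0.0245). PETC, the Rieske iron-sulfur protein of the cytochrome b6f complex, rose from 7, 8 and 10 counts to 17, 20 and 10 beside 790 to 1294 spanning reads (1.11 ± 0.29, adjusted p = 0.0386). SYTA, AT3G15010 and AT1G25098 were called by both references. PETC was not called against its gene count (adjusted p = 0.199), and EXP1 and CA1, whose junctions rose, were among the bins that fell here.

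**Figure D3:**
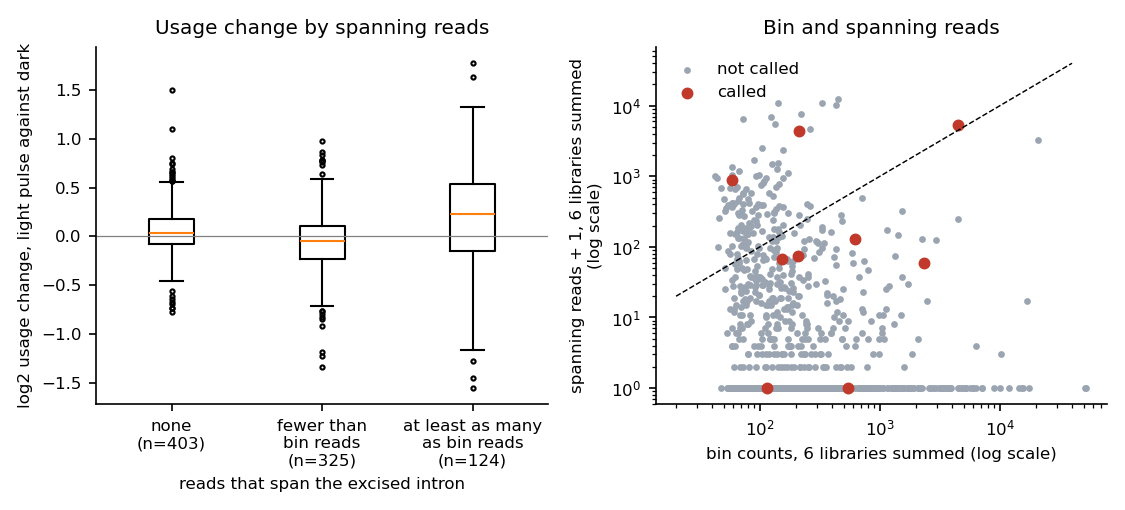
Left, log2 usage change of tested bins (vertical axis, light pulse against dark) by the number of spanning reads, as boxes with the median, the middle 50% and whiskers to 1.5 box lengths. Right, spanning reads plus 1 against bin counts, each summed over 6 libraries on log axes, with the dashed line where both are equal and called bins in red; 403 bins lie on the lowest row with no spanning read, 2 of the called bins among them.

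Bins differed in how far they spread around 0 by their spanning reads. Among the 124 bins with at least as many spanning as bin reads, 3 were called, all higher, and 29 passed at an unadjusted p under 0.05 (23.4%, background 9.06% as above). The groups did not overlap in 25 bins higher and 9 lower after light (background 6.94% and 7.77%). Their median change was 0.23, and the middle 50% lay between -0.15 and 0.53. Such bins have few counts (median 13.5 per library), and many passed the filter only through the group in which they were high. Among the 41 that met the count floor in all 6 libraries the median was 0.07. In the 325 bins with fewer spanning than bin reads the median was -0.05 with 4 calls, and in the 403 with none it was 0.03 with 2 calls.

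Per-library medians are given for these groups as a description. With 1 count added to each bin, the mean of light libraries less that of dark libraries was 0.20 on the log2 scale for bins with at least as many spanning as bin reads, most of which were under the floor in some library. It was 0.03 for bins with no spanning read and -0.02 for the bins between. In the 40 bins with many spanning reads in genes that rose, the median change was 0.43, and it was 0.04 in the 17 of them that met the floor in all libraries. In genes that fell it was 0.10 over 55 bins and 0.25 over the 17 that met the floor. Keeping only bins that met the floor thus lowered the median in genes that rose and raised it in genes that fell.

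Calls were few in every width class. The 324 bins of up to 90 bases had 2 calls, both higher, the 306 bins of 91 to 150 bases had 2, both lower, and the 222 bins over 150 bases had 5, 4 higher and 1 lower (2.25%, against the 1.20% over all alternatively spliced bins). Non-overlapping groups were 34 higher and 18 lower in the narrowest class, 20 and 32 in the middle class and 32 and 15 in the widest, where the background was 6.94% higher and 7.77% lower over all bins. The higher share was 10.5%, 6.54% and 14.4% in that order. The difference of per-library medians was 0.04 in the narrowest class (exact permutation p = 0.1), under 0.01 in the middle one (0.00185, p = 0.9) and 0.04 in the widest (p = 0.1). Over bins whose higher group averaged 20 counts or more these became 0.02, -0.01 and 0.01. No test of the difference between width classes was run.

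In the narrowest class PHT2;1, a chloroplast phosphate transporter, came next by p after the called bins of SYTA and AT2G25730. Its 77-base bin took 5.64%, 5.14% and 6.58% in the dark and 5.07%, 4.40% and 4.27% after light (-0.34 ± 0.09, adjusted p = 0.0929). All light libraries were below all dark ones, in a gene that rose by 1.24 ± 0.06. In the middle class SIP2;1, an aquaporin of the endoplasmic reticulum, went from 4.58 ± 0.647% to 2.75 ± 0.612% (-0.73 ± 0.19, adjusted p = 0.0737), with no spanning read and an overlapping locus. AT4G36530 went from 9.48 ± 0.936% to 6.38 ± 0.181% (-0.57 ± 0.16, adjusted p = 0.0943). In both the light libraries were all lower, and both genes rose. In the widest class TAF15b, a TBP-associated factor, went from 1.94 ± 0.314% to 4.18 ± 0.513% (1.11 ± 0.29, adjusted p = 0.0702), with 18 to 21 spanning reads in the dark and 5 to 13 after light. AT1G12440 went from 0.924 ± 0.225% to 2.40 ± 1.14% (1.27 ± 0.33, adjusted p = 0.0737). None of these 5 passed in this test, although usage did not overlap between groups in any of them. With no filter on low counts PHT2;1, SIP2;1, TAF15b and AT1G12440 passed (adjusted p = 0.00999, 0.0244, 0.0479 and 0.0101). AT1G12440 also passed against its spanning reads (1.39, adjusted p = 0.0475) and without dark library A (0.0468) or light library A (0.0380). PHT2;1 passed without light library A (0.0358), and so did SIP2;1 (0.0297), which also passed without the rRNA-rich pair (0.0399).

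Multiples of 3 and other widths had close shares of calls, and the difference was not tested. Of 335 such bins 4 were called (1.19%), 3 higher and 1 lower, and of 517 others 5 were called (0.967%), 3 higher and 2 lower, against the background of 1.20%. The difference of per-library medians was 0.03 in both (exact permutation p = 0.2 and 0.1). Median usage was 9.25 ± 0.0621% in the dark and 9.26 ± 0.297% after light for multiples of 3, and 7.53 ± 0.137% and 7.36 ± 0.227% for the others. The groups overlapped in both. The called bins of SYTA, AT2G10940, AT2G25730 and AT3G15010 are multiples of 3. Among the multiples of 3 not called, AT3G54760 had 2.47 ± 0.196% in the dark and 4.18 ± 0.611% after light (0.73 ± 0.21, adjusted p = 0.108). A 45-base bin of the auxin response factor gene IAA21 (also ARF7), in an overlapping locus, had 2.61 ± 0.328% and 4.40 ± 0.893% (0.76 ± 0.23, adjusted p = 0.161).

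**Figure D4:**
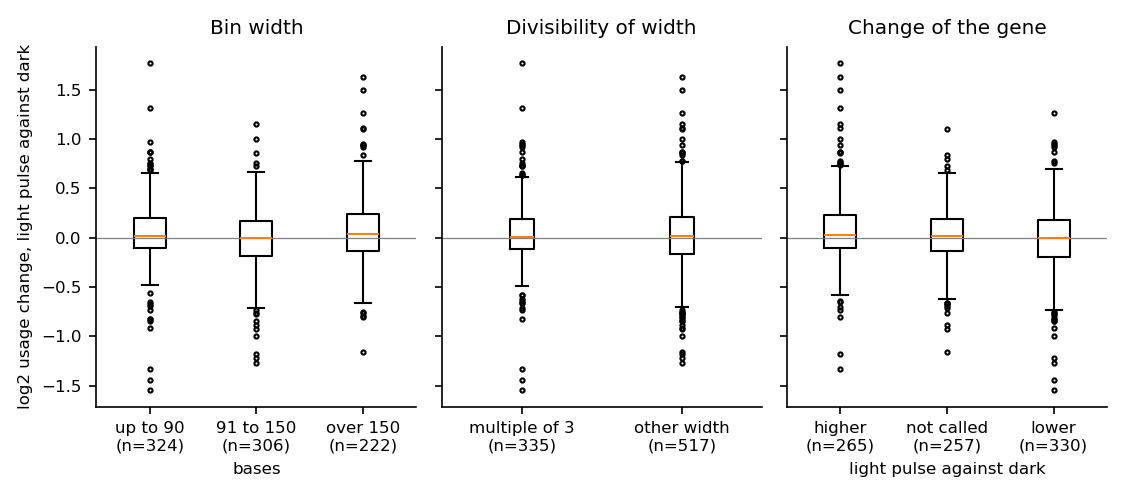
Log2 usage change of tested intron retention bins (vertical axis, light pulse against dark) by bin width, by divisibility of the width by 3 and by the change of the gene; boxes show the median and the middle 50%, whiskers reach 1.5 box lengths and dots are bins beyond. All medians lie between -0.01 and 0.03.

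The genes that hold the bins were called far more often than the bins. Gene counts are larger than bin counts (median of 28 per library in tested bins), so the gene test can detect smaller changes. Of the 822 loci, 255 were higher after light (31.0%, background 28.9% of 20151 genes), 317 lower (38.6%, background 27.4%) and 250 not called (56.3% of all genes were called). In genes that rose, 5 of 265 bins were called, 3 higher and 2 lower, where 1.20% of all alternatively spliced bins were called. In genes that fell, 3 of 330 were called, 2 higher and 1 lower, and in genes not called 1 of 257. The difference of per-library medians was 0.03 in each of the 3 classes (exact permutation p = 0.1, 0.1 and 0.2). Non-overlapping groups were 40 higher and 17 lower in genes that rose (15.1% and 6.42%), 28 and 29 in genes that fell, and 18 and 19 in the rest, against a background of 6.94% higher and 7.77% lower. Bin usage contains the gene count as its denominator, and the gene class uses the same counts, so the 2 measures are not independent.

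Named bins in genes that rose included 2 of light perception and pigment synthesis. PHOT2 encodes a blue-light receptor, and its 215-base bin had 4, 1 and 3 counts in the dark and 15, 11 and 13 after light. Usage went from 0.0986 ± 0.0543% to 0.319 ± 0.0611% (1.63 ± 0.50, adjusted p = 0.161), with no overlap between groups, in an overlapping locus. CAO, which makes chlorophyll b from chlorophyll a precursors, had 0.586 ± 0.0791% and 0.974 ± 0.274% (0.75 ± 0.30, adjusted p = 0.400), again without overlap. The largest gene rises in the named set were AT1G13650 (4.36 ± 0.12) and AT3G28270 (3.43 ± 0.08). Their bins took 10.0 ± 4.71% and 2.08 ± 0.801% in the dark and 4.19 ± 1.66% and 1.17 ± 0.176% after light, with adjusted p of 0.591 and 0.563. Dark counts there were 2, 2 and 5 and 5, 7 and 4, which limits the precision of the dark share.

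Of the 6 bins named for the lowest changes, 4 lay in genes that fell, in which 28 bins were higher and 29 lower without overlap. ALDH7B4, an aldehyde dehydrogenase, went from 33, 20 and 27 counts to 6, 10 and 3 (-1.22 ± 0.34, adjusted p = 0.0984). TBL10 went from 39, 33 and 34 counts to 11, 9 and 2 (-1.0 ± 0.30, adjusted p = 0.161). SCPL8 (also SNG1), the sinapoyltransferase that makes sinapoyl malate, went from 44, 28 and 31 counts to 14, 8 and 12 (-0.85 ± 0.27, adjusted p = 0.210). In the thioredoxin gene WCRKC1 light library B had 0 counts and the others 3 each, against 20 to 25 in the dark (-1.27 ± 0.55, adjusted p = 0.470). Usage did not overlap between groups in any of these 4, and none passed against the gene count, except ALDH7B4 with no filter on low counts (0.0308). TBL10 passed against spanning reads (-1.13, adjusted p = 0.0490). AT2G44140 moved the other way, from 3.95 ± 0.566% to 6.89 ± 1.62% (0.78 ± 0.23, adjusted p = 0.135), in an overlapping locus.

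**Figure D5:**
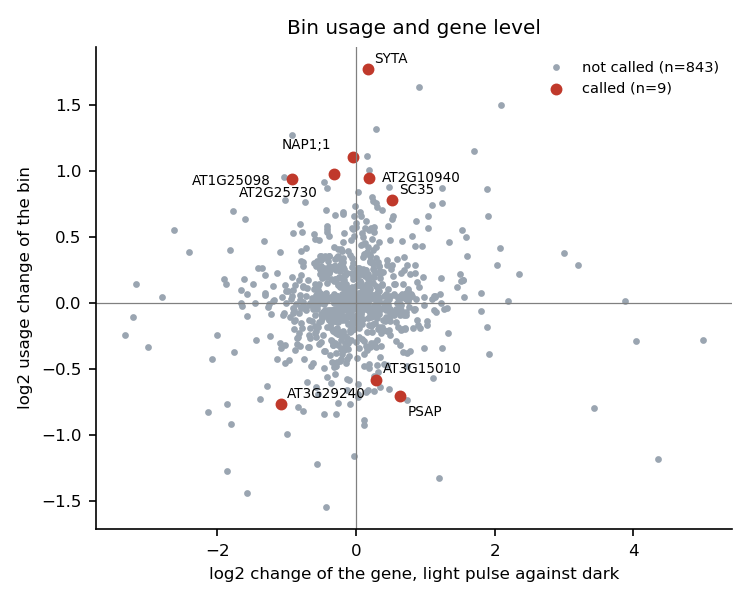
Log2 usage change of each tested bin (vertical axis) against the log2 change of its gene (horizontal axis), both light pulse against dark; called bins are red and named. Called bins lie in genes that rose, fell or were not called, from AT3G29240 at a gene change of -1.09 to PSAP at 0.63.

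Genes of splicing and of the clock held few of these bins. Of 20 genes for serine and arginine rich splicing factors, 4 have an intron retention bin and 3 were tested. SC35 was called higher and 0 were called lower, where 1.20% of all alternatively spliced bins tested were called. RS2Z33, in an overlapping locus, had 47, 18 and 23 counts in the dark and 16, 17 and 8 after light (-0.93 ± 0.31, adjusted p = 0.220, and 0.0467 with no filter on low counts). Usage was lower in every light library, and dark library A was the highest by far. SCL33 (SR33 in the files) stayed at 19.5 ± 0.765% and 19.5 ± 1.34%. Of 12 genes for other RNA-binding and splicing proteins, 4 have a bin, 3 were tested and 0 passed by edgeR's quasi-likelihood test, 0 at an unadjusted p under 0.05 and 0 by DESeq2. SKIP, a splicing factor of clock gene transcripts, had 23.9 ± 0.442% and 26.0 ± 0.897% (0.12 ± 0.06, adjusted p = 0.592), with all light libraries higher while the gene fell by 0.77. GRP7 (CCR2 in the files), a clock-controlled RNA-binding protein that acts on the splicing of its own transcript, had 20.4 ± 1.63% and 19.6 ± 0.952%. U1-70K, a protein of the U1 particle that recognises 5' splice sites, had 22.5 ± 0.955% and 22.4 ± 1.21%. In SCL33, GRP7 and U1-70K the groups overlapped in bin usage. No read spanned the GRP7 bin. Introns of GRP7 with no alternative event, summed, had 660, 519 and 542 counts in the dark and 206, 214 and 140 after light. These were 16.5% and 7.39% of gene counts (means), and this fall was not tested. Such introns went from 29.4% to 26.3% in SCL33 and from 2.67% to 2.73% in RS2Z33. SKIP and U1-70K had 0 to 2 such counts per library.

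Of 25 clock genes, 7 have an intron retention bin, and 6 bins in 5 genes were tested. None was called by edgeR or DESeq2, and 1 passed at an unadjusted p under 0.05. That was a 136-base bin of LNK2, a transcriptional coactivator of the clock, with 6, 5 and 3 counts in the dark and 33, 24 and 20 after light in a gene that rose by 1.88 ± 0.08 (usage change 0.86 ± 0.36, adjusted p = 0.451). Spanning reads there went from 0, 1 and 0 to 10, 6 and 5. Bin and spliced form therefore rose together in counts. The 65-base bin of the same gene had 8.0 ± 0.863% and 6.97 ± 0.394%, and the LNK2 locus overlaps another. LUX, a part of the evening complex, had 19.9 ± 2.87% and 16.2 ± 0.727%, and the bin of ZTL (ADO1 in the files), a blue-light receptor that targets clock proteins for degradation, had 11.0 ± 0.873% and 9.59 ± 1.12%. In LHY, a morning clock repressor, a 170-base bin stayed under 1% of gene counts, at 0.389 ± 0.120% and 0.461 ± 0.0973%. COR28 had 30 to 34 counts in the dark and 1 to 4 after light, at 21.4% and 22.0% of gene counts. Of 13 light signalling genes, 3 have a bin and 1 was tested, in PHYA, the far-red light receptor. The PHYA bin took 4.28 ± 0.295% and 4.76 ± 0.488% (0.14 ± 0.17, adjusted p = 0.923) while the gene fell by 1.03.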

How the data were processed

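The authors deposited raw counts per library for genes, exons, alternatively spliced bins, introns and splice junctions, as the files' whole numbers show, and no step was redone before these. Per the submitters' processing notes, TopHat2 2.0.9, R 3.1 and the build TAIR10 were used; how reads were counted, by strand or not, and filtered is not given in the sources used here. Columns carry letters and were mapped to groups only.

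Bin counts were tested with edgeR 4.0.16 (quasi-likelihood F test, R 4.3.3, limma 3.58.1 and the package data.table, version 1.17.8), with the offset log(gene count + 0.5), on all alternatively spliced bins that passed filterByExpr and had a gene count of at least 10 in every library. P-values were adjusted over all 3345 bins by the method of Benjamini and Hochberg and called under 0.05. The same model was run on introns and on junctions of a single gene. A spanning junction joins the bases next to a bin's borders. Genes were tested with TMM normalization. Single values per library were compared by exact two-sided permutation over 6 libraries. Class medians per library add 1 count to each bin and are centred per bin. The closest pair of libraries in a group still differed beyond sampling noise (chi-square per degree of freedom 2.69).

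Named bins are those called, the 6 highest and 6 lowest changes outside overlapping loci whose higher group averaged 20 counts or more, the 5 of highest usage with at least 50 counts, up to 5 per gene list by p, and the 2 of lowest p per class. Bins named for their junction, for their count or in a test against spanning reads were chosen after their values were seen, as was COR28. The members, classes and lists were chosen with earlier results of these data known. Gene names came from the files and from the RefSeq genes of TAIR10.1, in which all 2230 bins found their locus; intron sequences are not printed. On simulated data for 3345 bins of all events, changes were planted in 67 bins at 1.5-fold, 67 at 2-fold and 66 at 4-fold. The test found 37.3%, 82.1% and 97.0% of these in that order, with 3 false calls. In the measured data only 40 of 3345 bins were called, so the shares found there may be lower. DESeq2 1.42.0, other filters, offsets and pseudocounts, and leaving out libraries were the alternatives.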

Additional observations from a re-analysis of the deposited data

How the results depend on the processing

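With no filter on low counts 26 of 1998 tested intron retention bins were called, against 9 of 852 in the main test. The number called was 2 with DESeq2 (PSAP and AT1G25098), 15 of 134 against spanning reads and 3 without the 2 libraries richest in rRNA. It was 4 to 12 when 1 library was left out, and between 6 and 8 under the other settings. Among the called bins, NAP1;1 and SYTA had no adjusted p from DESeq2. Their absence from its calls is therefore not a negative result. PSAP and AT1G25098 kept their calls in every setting that tested them, and the other 7 did not. Without the 2 rRNA-rich libraries 2 libraries a group remain. The letters of the columns did not pair the libraries (same-letter correlation of gene deviations -0.081 to 0.145, and 2 of 6 libraries correlated best with their own letter). With the letter as a replicate block 6 bins were called, and NAP1;1 (adjusted p = 0.0674), SYTA (0.0841) and SC35 (0.0835) were not; the junction count stayed at 4.

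Class medians were small and moved with the settings. With 5 counts added in place of 1 they were 0.0690, 0.0449 and 0.0584 from the narrowest to the widest class, 0.0556 for multiples of 3, 0.0604 for other widths, 0.00163 in genes that rose, 0.120 in genes that fell, 0.0170 for bins with fewer spanning reads and 0.0511 for bins with none. With a mean of at least 20 counts in the higher group they were 0.0182, -0.0140 and 0.00978 by width, -0.000871 for widths not a multiple of 3, 0.0109 in genes that rose, 0.00709 in genes that fell, -0.00322 in genes not called and 0.0205 for bins with no spanning read. In genes that fell the median was 0.0116 with 0.5 counts added. In genes that rose it was 0.0173 without gene normalization, which shifts the median of all genes to -0.15, and 0.00608 without the 2 rRNA-rich libraries, where bins with no spanning read had 0.0248. Leaving out 1 library gave -0.0411 to -0.0201 for bins with fewer spanning reads and 0.0252 to 0.0358 for bins with none. Alternatives that leave out the rRNA-rich libraries here, and all on spanning reads, were chosen after seeing the data.

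The light-minus-dark difference in usage was 0.288 percentage points for the sum over all bins and -0.236 without the 10 largest. Over the tested bins it was -0.117 for the median bin and 0.140 with dark gene weights. Junction calls numbered 1 without the rRNA-rich libraries and 2 to 4 when 1 library was left out. Among bins near no change, the sign of AT5G56710 (-0.0424 to 0.00763), SCL33 (-0.0498 to 0.0426, and 0.0587 without the rRNA-rich libraries), GRP7 (-0.112 to 0.00486) and U1-70K (-0.0464 to 0.0322) turned when 1 library was left out. Depth limits the result: most changes of 1.5-fold in usage would be missed, and 1378 of 2230 bins could not be tested.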
